A study of Mus musculus with 16 samples.

Results

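The mouse genes named Zfp and a number encode zinc finger proteins, and 194 of them carried at least 1 peak of N6-methyladenosine (m6A) in mouse liver, out of 8284 genes with a peak. The members were all gene names of the form Zfp plus digits, without Zfp36, in 8 deposited peak lists. They held 557 of the 28297 listed peaks. The livers came from 4 male db/db mice, whose strain label names the mutation alone, and from 4 male lean C57BL/6 mice. A db/db mouse lacks a working leptin receptor and becomes obese and diabetic. Each mouse is a sample of its own in the labels, which give no age, diet or treatment. Methylated RNA immunoprecipitation sequencing (MeRIP-seq) pulls fragmented RNA down with an antibody to m6A, and each list holds the places where 1 mouse had more pulled-down reads than background.

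Most proteins of this class contact DNA through rows of C2H2 zinc fingers, short loops held by a zinc ion. Many also have a KRAB domain, which brings in the co-repressor TRIM28 and the histone methyltransferase SETDB1 to silence retroelements and other targets. The KRAB genes arose by repeated tandem duplication, lie in clusters and often differ little in sequence, and the finger array is usually encoded in the long last exon. The m6A mark is written by a complex built on METTL3, mostly in long internal exons and near stop codons, and it affects RNA stability, splicing and translation. The antibody also binds m6Am, a modified base that can stand next to the cap of a transcript.

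The lists held 2475 to 4807 peaks each. No read counts were used, the depth is unknown, and where no peak is listed the RNA may be unmethylated, scarce or too thinly read. In whole liver, fewer cells of a type and less RNA per cell cannot be told apart either. Of 12 hepatocyte markers only 5 had a peak in any mouse, Apoa1, Ttr, Hnf4a, Cyp3a11 and Ass1, and albumin (Alb) had none, so that a peak is no measure of expression. Of 8 markers of Kupffer cells and macrophages 7 had a peak, as did all 8 stellate cell and all 8 sinusoidal endothelial markers, 3 of 5 cholangiocyte markers and 1 of 7 lymphocyte and neutrophil markers. Macrophage markers with a peak in any mouse were marked in 17.9% ± 18 of cases per db/db mouse, against 32.1% ± 13.7 per lean mouse (SD, n = 4 each). Stellate cell markers stood at 40.6% ± 15.7 for db/db against 37.5% ± 10.2 for lean livers. Endothelial markers stood at 31.3% ± 12.5 for db/db against 28.1% ± 12.0 for lean livers, and hepatocyte markers at 25% ± 10 for db/db against 25% ± 19.1 for lean livers. The part of cell type mixture in the values below was not tested. Fold enrichment is the authors' own value for a peak, relative to its own list. Within a list many peaks share 1 fold: in db/db mouse 4, 307 of 4251 peaks were listed at 17.33-fold, 10 of them in Zfp genes. For that reason a fold is also given as its percentile within the list.

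Some Zfp peaks lay at transcript starts, and bases from there are shown first because the gene pairs on chromosome 17 described later turn on them. A start peak is one that overlaps the first 50 bases of an annotated RefSeq transcript. Of the 33 Zfp genes with a start peak, 14 had it in 2 or more mice. The following lines give the first 30 bases, from the annotated start and 5′ to 3′ on the gene's own strand, for 8 of these 14, namely those with at least 20 of these bases under the peak in every mouse that had one there, and for Zfp944, which belongs to one of those pairs. They were taken from RefSeq in build GRCm38.p6, with the same coordinates as mm10, the build of the lists. Capitals mark GGAC and the related letters AGAC, also GAAC, and finally AAAC, which are common cores of the sequence that the m6A writer recognises.
Zfp942 (chr17:21962435-21962464, minus strand): tcgtggccagAGACtggGAACcgcgtcccc
Zfp943 (chr17:21962559-21962588, plus strand): aattacgttggtagagtccgtccagctgcg
Zfp944 (chr17:22361371-22361400, minus strand): ggggctaggggagccgctccaaagatcgtg
Zfp758 (chr17:22361463-22361492, plus strand): cttccttaattacgttggtagagtccgtcc
Zfp326 (chr5:105876568-105876597, plus strand): agtagcgccgctgtcggtcgcgcgggccgg
Zfp959 (chr17:55892093-55892122, plus strand): gtctgagggaggctcttgtggttccgtgtc
Zfp292 (chr4:34882919-34882948, minus strand): gtgcgtacgcgacggagcgggctgcgaaga
Zfp932 (chr5:109996527-109996556, plus strand): cccttagtagctgagcaggcttgaatggtc
Zfp60 (chr7:27731409-27731438, plus strand): gcGGACggtcgggtctttctggtctgagta
Only Zfp942 and Zfp60 of these 9 hold such a core in their first 30 bases. Of the genes among the 14 that are not shown, Zfp747, Zfp691, Zfp207 and Zfp768 hold such a core there as well, and Zfp866 does not. The share of cores among the genes shown thus depends on which were chosen. The last bases shown for Zfp944 are the first shown for Zfp942, and most bases shown for Zfp758 are those that open Zfp943. In each of these couples the annotated starts thus fall at different points of shared sequence. Their first 30 bases do not cover the same stretch, so that a core in Zfp942 and none in Zfp944 is no contrast of like with like. Over all annotated starts of Zfp members, 26.1% of 188 windows held one in the first 30 bases, and 20.9% of the 43 windows of members with a start peak, against 34.5% of 32663 windows of other genes. The first annotated base was an A in 31.4% of Zfp windows, 34.9% of those of members with a start peak and 34.4% of windows of other genes. A match of letters is a description and no site, and annotated starts may differ from those used in liver.

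The number of Zfp genes with a peak overlapped between db/db and lean livers, and no measure of the family passed its test between the genotypes. Zfp genes with a peak numbered 59, 40, 65 and 74 in db/db mice 1 to 4, against 79, 58, 39 and 46 in lean mice 1 to 4. Both the highest and the lowest count belonged to lean mice, and the groups overlapped. The means were 59.5 ± 14.4 for db/db against 55.5 ± 17.5 for lean livers (SD, n = 4 livers each, exact two-sided permutation test, p = 0.743, adjusted p = 0.810). Adjustment here and below, unless another set of tests is named, is by Benjamini-Hochberg over the 12 tests on the family. As a share of all genes with a peak, Zfp genes made up 2.02% ± 0.285 for db/db against 2.17% ± 0.222 for lean livers (SD, n = 4 each, exact permutation p = 0.429, adjusted p = 0.643).

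Zfp peaks numbered 74, 45, 83 and 88 for db/db livers, against 99, 68, 43 and 57 for lean livers, with means of 72.5 ± 19.2 and 66.8 ± 23.8 (SD, n = 4 each, exact permutation p = 0.686, adjusted p = 0.810). Their share of all peaks was 1.87% ± 0.363 for db/db against 2.06% ± 0.257 for lean livers (SD, n = 4 each, exact permutation p = 0.4, adjusted p = 0.643). A Zfp gene with a peak had 1.21 ± 0.0685 peaks for db/db and 1.19 ± 0.0691 for lean livers (SD, n = 4 each, exact permutation p = 0.686, adjusted p = 0.810). The median Zfp peak was 67.5 ± 16 bases long for db/db against 66.8 ± 4.99 bases for lean livers (SD, n = 4 each, exact permutation p = 0.971), with the range of db/db mice, 51.5 to 86 bases, enclosing that of lean mice, 60 to 72 bases. The median Zfp peak stood at percentile 50.8 ± 5.43 of its list by fold for db/db livers and at 56.2 ± 7.47 for lean livers (SD, n = 4 each, exact permutation p = 0.286, adjusted p = 0.571). With 4 mice against 4 the smallest p that this test can give is 0.0286. With lists of equal length, the 2475 peaks of highest fold in each, the differences in Zfp genes and Zfp peaks turned to -4.25 and -6 (db/db minus lean).

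**Figure D1:**
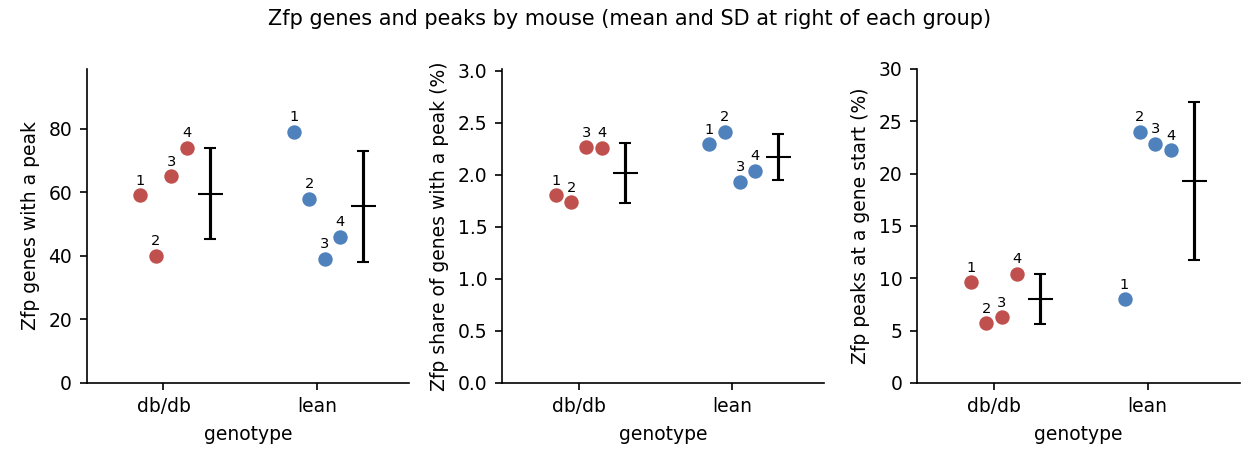
Zfp genes with a peak (left), their share of all genes with a peak in percent (middle) and the share of Zfp peaks at an annotated transcript start in percent (right), for each of 4 db/db and 4 lean mice; points are mice with their numbers, and the bar beside each group is the mean with its SD. Counts and shares of genes overlap between the genotypes, and for start peaks the 3 lean mice numbered 2, 3 and 4 lie at 22.2% to 24%, above all db/db mice, while lean mouse 1, at 8%, lies among them.

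Set against other genes of the same mouse, Zfp genes had fewer peaks per gene in most mice and shorter peaks in all of them, but neither difference passed the adjusted threshold of 0.05. Peaks per gene averaged 1.2 ± 0.0646 for Zfp genes and 1.29 ± 0.0795 for other genes (SD, n = 8 mice), lower for Zfp genes in 7 of 8 mice, with db/db mouse 3 the exception. The difference was -0.0882 ± 0.0706 (SD, exact sign-flip permutation test over 8 mice, two-sided, p = 0.0156, adjusted p = 0.0938). The median peak length was 67.1 ± 11.0 bases in Zfp genes and 74.4 ± 10.4 in other genes (SD, n = 8 mice), and it was shorter in 8 of 8 mice, by 7.25 ± 5.01 bases (exact sign-flip permutation p = 0.00781, the smallest the test can give, adjusted p = 0.0938). Genes with 2 or more peaks were 17.9% ± 4.91 of Zfp genes and 20.3% ± 4.10 of other genes (SD, n = 8 mice), a share lower for Zfp genes in 5 of 8 mice, with a difference of -2.38 points (exact permutation p = 0.211, adjusted p = 0.571). With only peaks of a p-value of 1e-10 or less, the differences in peaks per gene (-0.116) and in this share (-7.31 points) passed (exact permutation adjusted p = 0.0469 for both), and that in length was -19.6 bases without passing (exact permutation adjusted p = 0.0938).

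Fold and position in the gene did not pass the test between the sets. The median Zfp peak stood at percentile 53.5 ± 6.70 of its list by fold and the median peak of other genes at 49.9 ± 0.210 (SD, n = 8 mice, exact permutation p = 0.172, adjusted p = 0.571), higher for Zfp genes in 5 of 8 mice. Along the annotated gene, from 0% at its start to 100% at its end, the median peak lay at 65.9% ± 13.1 in Zfp genes and 61.6% ± 5.0 in other genes (SD, n = 8 mice, exact permutation p = 0.281, adjusted p = 0.571). This position was known for the 156 members with an annotated strand, and 423 peaks. No difference between Zfp and other genes passed a test for a change with genotype (exact permutation p of 0.171 to 1, smallest adjusted p = 0.643, adjusted over these 5 tests alone).

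**Figure D2:**
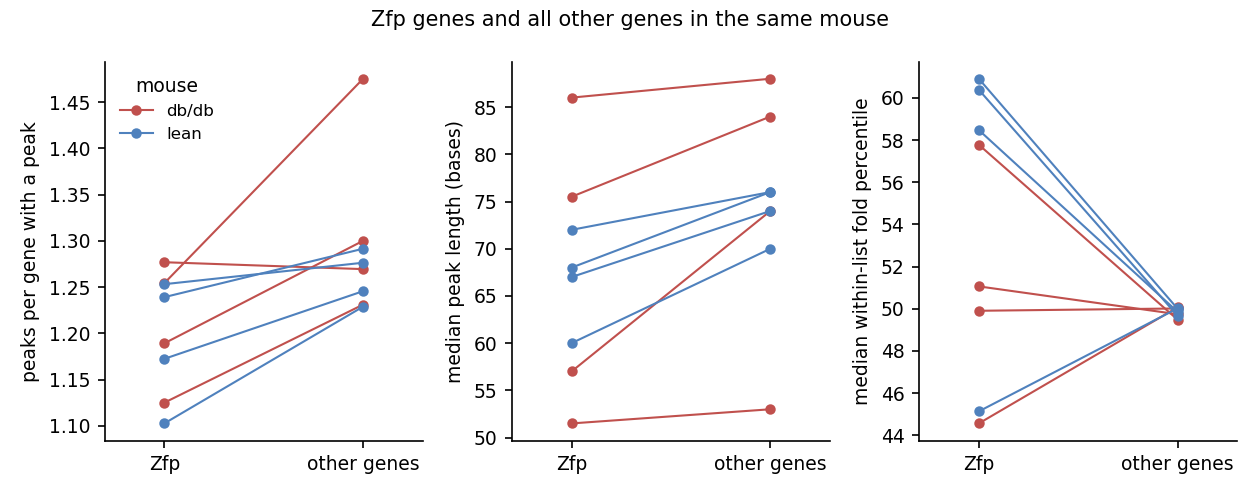
Peaks per gene with a peak (left), median peak length in bases (middle) and median within-list percentile of fold (right) for Zfp genes and for all other genes; each line joins the 2 values of 1 mouse, red for db/db and blue for lean, and the vertical axes do not start at 0. Lines go up from Zfp to other genes in 7 of 8 mice for peaks per gene and in 8 of 8 for length, and the percentiles of Zfp genes scatter about those of other genes.

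Zfp genes are also shorter than the other genes with a peak, with a median annotated length of 18952 bases (n = 193) against 26971 bases. Among genes of 12105 to 29334 bases, the middle quartiles of the Zfp members, peaks per gene were 1.16 for Zfp genes and 1.26 for others (difference -0.0994, exact sign-flip permutation p = 0.0469, adjusted p = 0.188). The median lengths of peaks were then 66.9 and 72.6 bases (difference -5.69, exact permutation p = 0.188, adjusted p = 0.453). Zfp peaks then stood higher by fold, at percentile 59.8 against 48.0 (difference 11.9, exact permutation p = 0.0313, adjusted p = 0.188), and further along the gene, at 70.2% against 53.1% (difference 17.1, exact permutation p = 0.0156, adjusted p = 0.188), without passing. This restriction was chosen after seeing the data. Long peaks were few: 9 of 557 Zfp peaks, 1.62%, had 300 bases or more, against 3.49% of peaks of other genes. Over 100-fold enrichment was listed for 4 Zfp peaks, 0.718%, all in Zfp608, against 1.78% of peaks of other genes. No Zfp peak overlapped an annotated small RNA gene of up to 400 bases.

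Most Zfp genes had a peak in few mice. Of the 194 members, 84 (43.3%) had a peak in 1 mouse, 110 in 2 or more, 25 (12.9%) in 5 or more and 4 (2.06%) in all 8. Among the 8090 other genes these shares were 38.3% in 1 mouse, 16.8% in 5 or more and 3.63% in all 8. Peaks of 1 gene that shared at least 1 base over the mice were merged into regions, 392 for the Zfp genes. Of these regions 73 (18.6%) were found in 2 or more mice, against 23.5% of the regions of other genes. In 48 of the 110 genes with a peak in 2 or more mice (43.6%), no region was shared by any pair of mice, against 38.4% for other genes. Regions per gene averaged 2.02 in Zfp and 2.17 in other genes, 90 Zfp genes had 1 region, and the most was 9, in Zfp609.

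**Figure D3:**
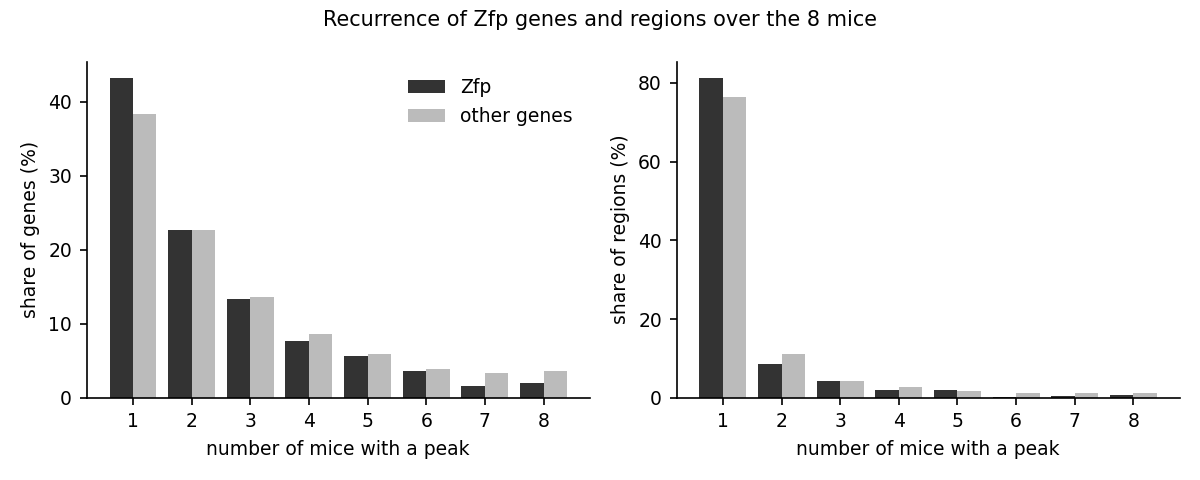
Share of genes (left) and of regions (right) in percent by the number of mice, from 1 to 8, that had a peak there, black for Zfp and grey for all other genes. In both panels the bar for 1 mouse is the highest, at 43.3% of Zfp genes against 38.3% of other genes and at 81.4% of Zfp regions against 76.5% of other regions.

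Lists of 2 mice had in common a median of 19.9% of the Zfp names found in either for pairs of db/db mice, 25.6% for pairs of lean mice and 22.0% for mixed pairs. For other genes these medians were 29.0%, 27.7% and 27.1%.

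The 4 genes with a peak in every mouse were Zfp608, Zfp777, Zfp629 and Zfp91. Zfp608, which represses the Rag genes in mouse thymocytes, had the highest folds of the family, in a region of 64 bases at chr18:54893966-54894029. The fold there was 211, 112, 70.6 and 65.0 in db/db mice 1 to 4, against 56.9, 56.7, 107 and 113 in lean mice 1 to 4. Both genotypes had mice over 100-fold and mice under 75-fold, and the peaks were 44 to 64 bases long. Within their lists these peaks stood at percentiles of 96.6 to 99.1. Another Zfp608 region, at chr18:54987613-54987723, was listed in no db/db mouse and in lean mice 1 and 4, with folds of 15.2 and 16.7.

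Zfp91, an E3 ubiquitin ligase that activates noncanonical NF-kappaB signalling, had the longest Zfp peaks and low folds. Its region, chr19:12769808-12770505, lay about 3 kb before the annotated gene end. The peak was 695, 470, 680 and 407 bases long in db/db mice 1 to 4, against 457, 418, 467 and 449 bases in lean mice 1 to 4. The longest pair, in db/db mice 1 and 3, stood apart from the other 6, while the shortest was in db/db mouse 4. The median peak of other genes was also longest in these mice, at 84 and 88 bases, and shortest in db/db mouse 4, at 53 bases. In lean mice it was 70 to 76 bases. The order of lengths is thus not particular to Zfp91. Folds were 5.93, 6.25, 9.15 and 6.48 in db/db mice and 9.06, 4.46, 8.24 and 4.54 in lean mice. As listed, each relative to its own list, the folds overlapped between the genotypes as well.

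Zfp777 had 1 region in all 8 mice, chr6:48043889-48044154. Its folds were 9.30, 16.7, 20.3 and 12.1 in db/db mice, against 9.20, 8.95, 13.6 and 25.8 in lean mice. The highest listed value was in lean mouse 4 and the lowest in lean mouse 2, each relative to its own list. Zfp629 had a region at chr7:127608290-127608510, about 1.4 kb before the gene end, in 4 db/db mice (7.10, 15.3, 27.4 and 7.39-fold) and in lean mice 2, 3 and 4 (10.1, 8.82 and 9.99-fold). The lean mouse without it, number 1, had Zfp629 peaks on both sides, at chr7:127608193-127608252 and chr7:127609777-127609840. Zfp865 had a region in 7 mice, chr7:5032861-5033034, at 11.4, 31.3 and 14.8-fold in db/db mice 2, 3 and 4 and 15.1, 18.6, 17.3 and 13.2-fold in lean mice 1 to 4.

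Several widely marked genes had their peaks scattered. Zfp503, a repressor needed for striatal neurons, had a peak in 3 db/db and 4 lean mice, spread over 6 regions of a gene of 5643 bases. Its most shared region, chr14:21985873-21985980, held peaks of db/db mouse 2 and lean mice 2 and 4. Zfp609, known for a circular RNA from its locus and for a part in cortical neuron migration, had 9 regions and a peak in 4 db/db and 3 lean mice. No Zfp609 region held more than 3 mice, with db/db mice 3 and 4 and lean mouse 1 at chr9:65700992-65701143. Zfp703, whose human counterpart is an oncogene of luminal breast cancer, had 5 regions, with 3 mice of each genotype and at most 1 mouse of each in a region.

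Zfp668, linked in human cells to the DNA damage response, had short peaks of high fold at chr7:127865801-127865859. They were 41 and 49 bases long at 74.0 and 32.0-fold in db/db mice 1 and 2, and 43 and 55 bases at 37.3 and 29.4-fold in lean mice 2 and 3. Lean mice 1 and 4 had their Zfp668 peaks elsewhere in the gene. Zfp830, a splicing factor needed by early mouse embryos, had 1 region in 6 mice at chr11:82765169-82765512, in 3 mice of each genotype. Its longest peak had 311 bases, in db/db mouse 3. Zfp507 had 7 regions, none shared between mice, with 2 mice of each genotype. The highest fold percentile after Zfp608 and Zfp668 was shared by Zfp697, with a peak of 40 bases, and Zfp442, with one of 52 bases, each at 36.8-fold in db/db mouse 4. Zfp442 was named after its values were seen.

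**Figure D4:**
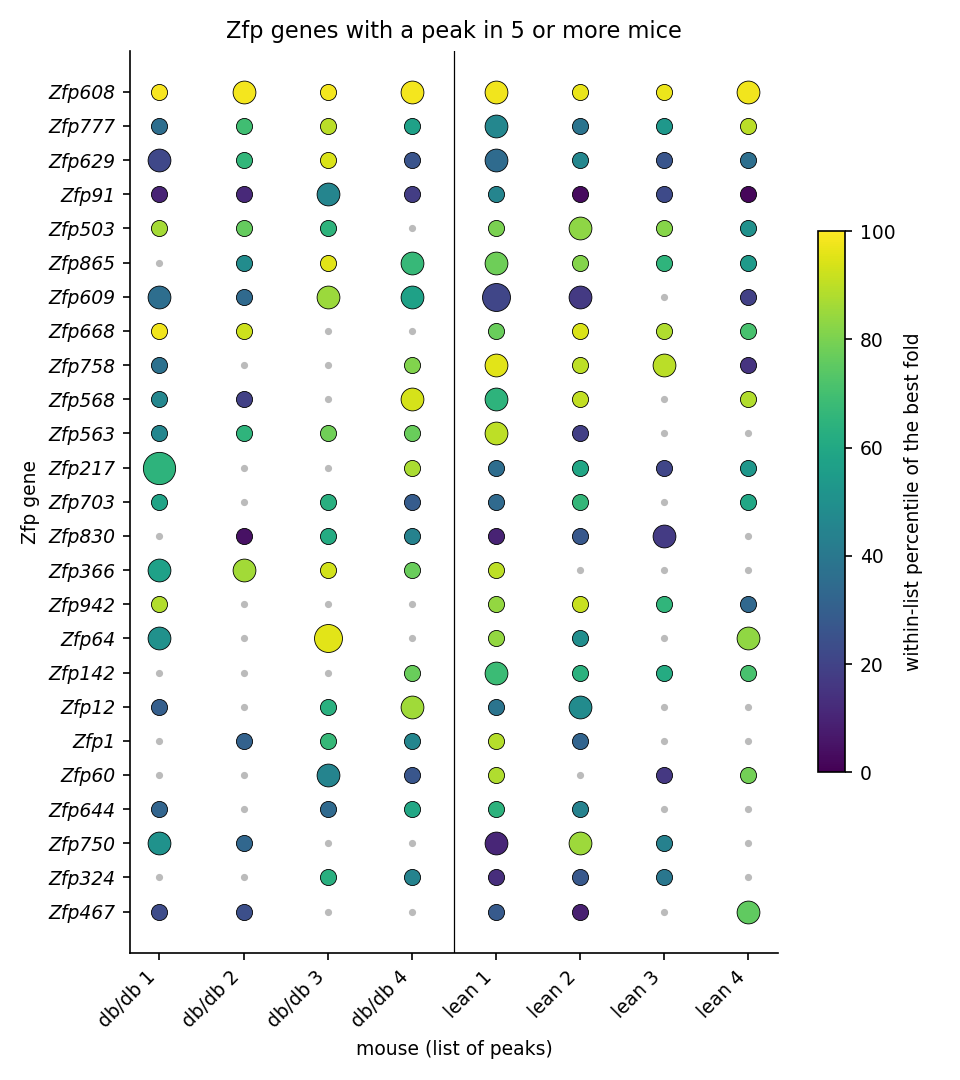
The 25 Zfp genes with a peak in 5 or more mice (rows) in db/db mice 1 to 4 and lean mice 1 to 4 (columns); a circle grows with the number of peaks, its colour is the within-list percentile of the best fold, and a small grey dot stands for no peak. Zfp608 is at the top of the scale in all 8 mice, Zfp91 is low in most, and Zfp366 and Zfp942 have 4 circles in one genotype and 1 in the other.

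Compared by genotype, 65 members (33.5%) had a peak only in db/db mice, 44 (22.7%) only in lean mice and 85 (43.8%) in both. Among other genes 29.99% had one only in db/db mice, 20.8% only in lean mice and 49.3% in both. Complete separation, 4 mice against 0, was seen in 0 members either way. Over all genes it was seen in 0.338%, with 0.205% for db/db livers alone and 0.133% for lean livers alone. None passed Fisher's exact test (two-sided, Benjamini-Hochberg over 8284 genes), with 0 members at an unadjusted p under 0.05 and a smallest exact p of 0.143. At least 2 more db/db than lean mice had a peak in 22 members (11.3%), against 12.1% of all genes, and at least 2 more lean than db/db mice in 20 members (10.3%), against 7.33% of all genes. At least 3 more db/db mice had a peak in 4 members (2.06%), Zfp366, Zfp790, Zfp707 and Zfp110, against 2.44% of all genes. At least 3 more lean mice had a peak in 3 members (1.55%), Zfp142, Zfp942 and Zfp963, against 1.1% of all genes. Both shares were near those of all genes.

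Zfp366, a co-regulator of nuclear receptors and a marker of dendritic cells, had a region at chr13:99246315-99246510 in all 4 db/db livers and 1 lean liver. The folds were 10.3, 18.3, 24.9 and 17.3 in db/db mice 1 to 4 and 20.2 in lean mouse 1 (Fisher's exact p = 0.143). As rounded, those in db/db mice 2 and 4 equal the commonest fold of their lists, 18.29 in 200 of 2831 peaks and 17.33 in 307 of 4251. The lean value lay inside the range of the db/db values, each relative to its own list, and the other 3 lean mice had no Zfp366 peak. Zfp110, which binds the p75 neurotrophin receptor, had a region at chr7:12834979-12835139 in db/db mice 2, 3 and 4, at 8.83, 8.84 and 4.90-fold, and in no lean mouse (Fisher's exact p = 0.143). Zfp707 was marked in db/db mice 1, 2 and 3 but no lean mouse, in a pair of regions with 2 mice each and 1 with 1 mouse. Zfp790 was marked in db/db mice 2, 3 and 4, each at another place, and in no lean mouse. Zfp873 was marked in 2 db/db and 0 lean livers, and Zfp764 in 3 db/db livers and 1 lean liver.

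Zfp142 had a region at chr1:74566655-74566855 in db/db mouse 4, at 17.3-fold, and in lean mice 1, 2 and 3, at 12.6, 14.0 and 16-fold, and lean mouse 4 had a Zfp142 peak close by (Fisher's exact p = 0.143 for the gene). As rounded, its folds in db/db mouse 4 and lean mouse 1 equal the commonest of their lists, 17.33 and 12.64. Zfp963 had a peak in no db/db mouse and in lean mice 1, 2 and 4, with no region in common. Zfp2 and Zfp282 each had a peak in no db/db mouse and 2 lean mice, in separate regions. Zfp467, which promotes fat cell formation from mouse mesenchymal cells, had peaks in 2 db/db and 3 lean mice, but its region at chr6:48439237-48439454 was listed in no db/db mouse and in lean mice 1, 2 and 4 (7.16, 5.44 and 10.1-fold). Those 3 lean peaks all ended at base 48439454, while the db/db peaks of Zfp467 lay apart from them, at chr6:48438561-48438674 in mouse 1 and chr6:48438834-48438874 in mouse 2.

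By region, 2 Zfp regions (0.510%) had at least 3 more db/db mice, those of Zfp366 and Zfp110, against 0.479% of all regions, and 3 (0.765%) had at least 3 more lean mice, those of Zfp942, Zfp467 and Zfp943, against 0.663% of all regions. At least 2 more db/db mice had a peak in 8 Zfp regions (2.04%), against 4.47% of all regions, and at least 2 more lean mice in 16 (4.08%), against 3.57%. Complete separation was seen in 0 Zfp regions, against 0.167% of all regions, with 0.0725% for db/db livers alone and 0.0948% for lean livers alone, and 0 Zfp regions had an unadjusted Fisher's exact p under 0.05.

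Peaks at transcript starts were 54 of the 423 Zfp peaks with a known start, 12.8%, against 14.2% of 21030 peaks of other genes. By mouse they were 9.62%, 5.71%, 6.25% and 10.4% of Zfp peaks in db/db mice 1 to 4, against 8%, 24%, 22.9% and 22.2% in lean mice 1 to 4. Lean mice 2, 3 and 4 stood above all db/db mice, and lean mouse 1 stood among them. The counts behind these shares were small, 5, 2, 4 and 7 in db/db mice and 6, 12, 8 and 10 in lean mice. Pooled over mice the shares were 8.26% for db/db and 17.6% for lean livers in Zfp genes, and 12.3% for db/db and 16.6% for lean livers in other genes. By mouse, other genes stood at 8.69%, 14.7%, 14.3% and 13.2% in db/db mice 1 to 4. In lean mice 1 to 4 they stood at 14.6%, 19.7%, 13.9% and 18.5%, so that the genotypes overlapped. The split of start peaks by genotype was looked at after the values were seen and was not tested. Zfp start peaks had a median fold percentile of 77.8 and other Zfp peaks 50.9, against 59.2 and 47.5 for the peaks of other genes.

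The start peaks lay in 33 members, of which 9 (27.3%) had them in more db/db mice, 18 (54.5%) in more lean mice and 6 in equal numbers. Of 1465 other genes with a start peak, 39.9% had them in more db/db and 45.1% in more lean mice. Zfp326, whose protein couples transcript elongation to splicing in human cells, had a start peak in db/db mouse 2 at 22.9-fold, and in lean mice 1 and 2 at 21.5 and 13.0-fold. Zfp932, a repressor of mouse retroelements, had start peaks in no db/db mouse and in lean mice 3 and 4, at 19.1 and 10.7-fold. Zfp207, which helps load a checkpoint protein on kinetochores, had them in db/db mouse 3 and lean mouse 2. On chromosome 17 lay 8 of the 33 genes, with 19 of the 54 peaks.

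Of the 54 start peaks 14 lay at 2 head-to-head gene pairs on chromosome 17. Zfp942 and Zfp943 are transcribed away from each other with 94 bases between their starts, and Zfp944 and Zfp758 with 62 bases between theirs. Zfp942 had a start peak in db/db mouse 1, at 21.9-fold, and in lean mice 1 to 4, at 16.4, 28.9, 17.4 and 9.52-fold (Fisher's exact p = 0.143). Zfp943 had its start peak in no db/db mouse and in lean mice 1, 2 and 3, at 8.85, 25.9 and 29.6-fold. Lean mice 1, 2 and 3 thus had peaks on both sides of this pair, and no db/db mouse had. Zfp944 had a start peak in db/db mice 3 and 4, at 25.3 and 16.3-fold, and in lean mice 2 and 3, at 23.4 and 17.1-fold. Zfp758 had a start peak in no db/db mouse and in lean mice 2 and 3, at 25.9 and 32.0-fold, and a second region, chr17:22373643-22373769, in 2 db/db and 3 lean mice.

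The bases between the starts are shown because the shorter stretch is contained whole in the longer. They are from RefSeq (GRCm38.p6), on the plus strand, and capitals mark an E box (CACGTG) and a GC box (CCGCCC, the reverse strand of GGGCGG). At the pair of Zfp944 and Zfp758 the letters CCGCCC run across the annotated start of Zfp944. They are cut by the edge of the stretch and for that reason are not marked there.
Zfp942 to Zfp943 (chr17:21962465-21962558): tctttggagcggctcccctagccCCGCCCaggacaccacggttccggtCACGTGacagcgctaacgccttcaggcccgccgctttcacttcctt
Zfp944 to Zfp758 (chr17:22361401-22361462): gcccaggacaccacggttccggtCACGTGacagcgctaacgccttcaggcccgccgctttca
Over windows of 250 bases before to 50 after a start, Zfp943 and Zfp758 shared an unbroken run of 248 bases, and Zfp942 and Zfp944 one of 207 bases. Outside these 4 genes, the only such run over 100 bases among the 33 members was that of Zfp937 and Zfp442, with 112 bases, which both had a start peak in db/db mouse 4. In lean mouse 2 the start peaks of Zfp943 and Zfp758 each had 43 bases at 25.9-fold. The start peak of Zfp799 in that mouse was also at 25.9-fold. Equal length and fold in the same mouse were also listed for Zfp genes on different chromosomes. In lean mouse 1 these were Zfp330 with Zfp37, Zfp414 with Zfp937, and Zfp560 with Zfp608. What such a match means was not tested. Reads from copies that share long runs cannot be told apart where the bases are the same. How the authors placed them is not given in the sources used here, so that the values of Zfp942, Zfp943, Zfp944 and Zfp758 are uncertain. Only windows around starts were compared, so that other members, and the family values above, may share this limit. Zfp960 had regions of 52 and 58 bases at chr17:17087254-17087305 and chr17:17088380-17088437. Zfp97 had regions of the same widths at chr17:17144469-17144520 and chr17:17145595-17145652, and each of these regions was in 1 lean mouse. Without Zfp942, Zfp943, Zfp944 and Zfp758 the start shares were 7.08% of Zfp peaks for db/db and 13.2% for lean livers, with 15 and 25 peaks.

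**Figure D5:**
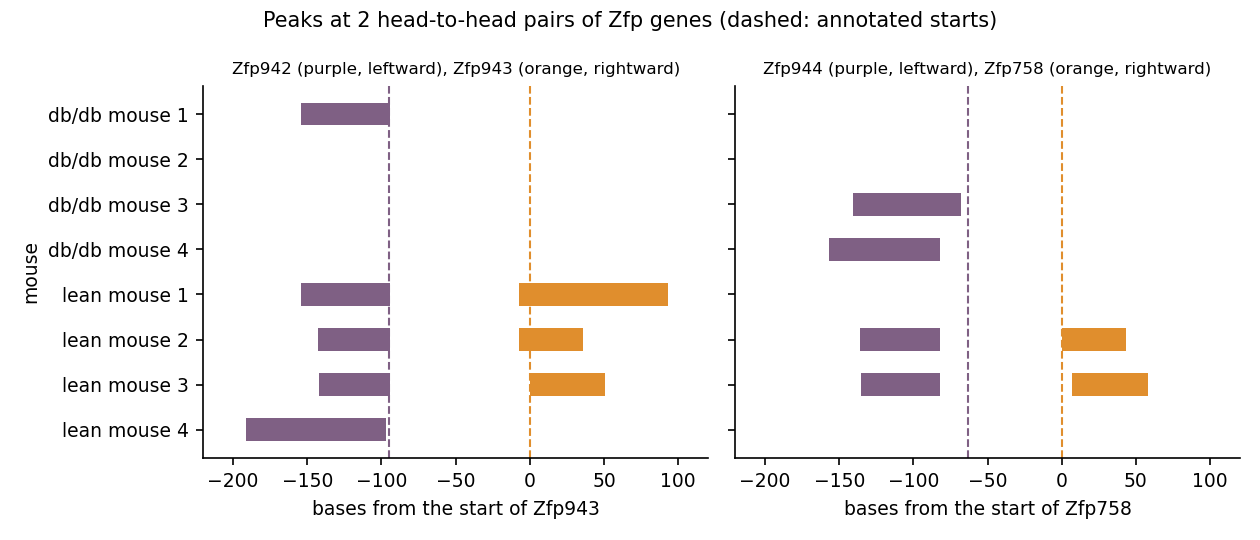
Start peaks of Zfp942 and Zfp943 (left) and of Zfp944 and Zfp758 (right) as bars by mouse, against distance in bases from the start of Zfp943 or Zfp758; purple is the gene read leftward, orange the gene read rightward, and dashed lines are the annotated starts. Bars begin near the starts and lead away from them, orange bars appear in lean mice, and purple bars appear in both genotypes.

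Promoter letters of the family were searched in the same windows of 300 bases on both strands, with 188 Zfp windows, 43 of them of members with a start peak, and 32663 windows of other genes. The 43 belong to the 33 members with a start peak, so that a window among them need not itself lie at a peak. CCAAT was in 50.5% of Zfp windows, 69.8% of the 43 and 37.3% of other windows. GGGCGG was in 45.7% of Zfp windows, 37.2% of the 43 and 35.6% of other windows. TATAAA was in 4.26% of Zfp windows, 2.33% of the 43 and 13.7% of other windows. CACGTG was in 7.45% of Zfp windows, 18.6% of the 43 and 7.15% of other windows. The windows of Zfp942, Zfp943, Zfp944 and Zfp758 are among the 43. All of these hold the CACGTG of the shared stretch between the starts, so that they are not separate cases. Given the long runs they share, this can hold for the other letters too.

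The members lay in clusters. Of 193 with annotated bounds, 97 (50.3%) had another member within 100 kb, and chromosome 7 held 50 and chromosome 17 held 32. Matched by gene ID, 195 of 366 annotated Zfp genes (53.3%) had a peak in any mouse, against 35.7% of 21530 other protein-coding genes. Both shares are over all annotated genes, whether or not they are expressed in liver. They are thus no measure of how often an expressed gene is marked. On chromosome 17 the shares were 78.0% of 41 Zfp genes and 36.9% of other genes, on chromosome 7 they were 57.3% of 89 and 28.0%, and on chromosome 4 they were 29.6% of 27 and 38.7%. In the lists' own annotation, 55.2% of members carried the term regulation of transcription, against 9.26% of other genes, and 99.0% had no named pathway, against 63.3%.

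Of the role lists drawn up for the family, that for repression of retroelements and imprinting had 5 of 8 genes with a peak. They were Zfp568, Zfp445, Zfp809, Zfp932 and Zfp110, the last named above for another role. Zfp568, which silences a placental Igf2 transcript in mice, had a peak in 3 mice of each genotype over 6 regions. Zfp445, a guardian of imprinted loci, had a region in db/db mice 2 and 3 and in no lean mouse, while Zfp809, a repressor of mouse retroviruses, had peaks in no db/db mouse and 1 lean mouse. Of 10 genes tied to metabolism or adipose tissue 3 had a peak, Zfp467, Zfp407 and Zfp189. Of 11 genes of RNA or protein handling 7 had one, among them Zfp451, a SUMO ligase, in 2 mice of each genotype with 1 region in all 4 of these. Of 19 promoter or chromatin genes 14 had one.

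In that last group Zfp217, which promotes fat cell formation in mice and binds the m6A writer METTL3, had peaks in 2 db/db and 4 lean mice. Its shared region, chr2:170110508-170110629, held db/db mice 1 and 4 at 14.3 and 21.7-fold and lean mice 2 and 3 at 12.8 and 8-fold. Both db/db folds there were above both lean folds, each relative to its own list. Zfp64 had peaks in 2 db/db and 3 lean mice, Zfp335 in 3 and 1, Zfp740 in 2 and 1, Zfp687 in 1 and 2, and Zfp292 in 1 and 2. Zfp750, a regulator of skin differentiation, and Zfp84 were among the genes with the longest peaks, at 247 and 294 bases, as was Zfp809 at 248 bases.

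Of 22 partners of KRAB co-repression 15 had a peak. Trim28 itself had none, and Setdb1 had 1 in 1 db/db mouse and none in lean mice. Chd3 and Chd4, the motor subunits of the NuRD deacetylase complex, had peaks in 4 and 4 db/db and 4 and 3 lean mice. Partners with a peak in any mouse had 1 in 36.7% ± 8.61 of cases per db/db mouse and 35% ± 17.5 per lean mouse, and Zfp members in 30.7% ± 7.42 and 28.6% ± 9.03 (SD, n = 4 each). Over all 8284 genes the figures were 35.3% ± 5.53 per db/db and 30.5% ± 7.60 per lean mouse.

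Set against other transcription factor families pooled, the Zfp genes lay lower in peaks per gene and peak length, but not past the adjusted threshold. Against Sox, Fox, Klf, Zbtb, Zscan and Zkscan genes together, Zfp genes had 1.2 peaks per gene against 1.33 and a median length of 67.1 against 83.2 bases (differences -0.124 and -16.1, exact sign-flip permutation p = 0.0156 for both, adjusted p = 0.0625 for both). Genes with 2 or more peaks were 17.9% of Zfp genes and 24.6% of these, with a difference of -6.68 points (exact permutation p = 0.00781, adjusted p = 0.0625). Single families were not tested. The median peak over all mice was 69 bases long in Zfp genes, against 86 in Sox, Fox and Klf genes and 83 in Zbtb genes, but it was shorter, at 56 bases, in the 14 Zscan and Zkscan genes, which also encode zinc finger proteins. Of 33 Sox, Fox and Klf genes 52.3% ± 7.58 were marked per db/db mouse, against 34.1% ± 12.5 per lean mouse, and of 30 Zbtb genes 43.3% ± 12.5 per db/db mouse, against 29.2% ± 14.5 per lean mouse (SD, n = 4 each). Whether these shares differed by genotype was not tested.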

How the data were processed

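The lists come from MeRIP-seq of 8 livers, 4 db/db and 4 lean. The 8 input libraries were not analysed here. Per the submitters' processing notes, cutadapt 1.9.3 and HISAT2 2.0.4 were used with build mm10. The peak caller's version and its use of inputs are not given in the sources used here. Peaks were called per mouse, per the file headers. Fold enrichment is a ratio deposited by the authors. The authors' score is the log10 of the p-value times -10, at least 50, and the third deposited value is the length in bases. Lists were tied to mice by sheet name, and 8 columns that repeat the score were not used.

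Starts were converted to count from 1. Gene bounds, strands and starts are from RefSeq (GRCm38.p6), with bounds for 193 and strands for 156 members. Exons and proteins were not analysed here. Python 3.11.15, pandas 2.3.3, numpy 2.4.6, scipy 1.17.1 and matplotlib 3.10.9 were used. Genotypes were compared over the 70 assignments of mice and Zfp with other genes over 256 sign patterns, both exact and two-sided. Genes and regions had two-sided Fisher's exact tests with Benjamini-Hochberg adjustment. Functions were tested on simulated data.

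Genes to name were the 10 in most mice, up to 6 each way that differed by most mice between genotypes, the 5 with most regions, the 5 with the longest peak, the 3 of highest fold percentile, role list members in 3 or more mice, and partners in 5 or more mice or differing by 3. Others, those at starts and in pairs included, were chosen after their values were seen. Members and lists were chosen with earlier results of these data known. Alternatives were a fold of 5, a p-value of 1e-10, equal list lengths, other names, reference genes, gaps and means, a replicate block, gene length and leaving out each mouse.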

Additional observations from a re-analysis of the deposited data

Results flagged for a closer look

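Of 24 groups of mice looked at, 2 had a mouse well apart from the others, which chance alone gives in about 1 in 20 groups, and both times it was lean mouse 3. The 2 are in effect 1 observation. The second measure only subtracts the median percentile of other genes, which was 49.9 ± 0.210 (SD, n = 8 mice). The median Zfp peak of that mouse stood at percentile 45.1 of its list by fold, against 58.5, 60.4 and 60.9 in lean mice 1, 2 and 4. Set against the other genes of the same mouse, its Zfp peaks were lower, with a difference of -4.89 percentile points, the lowest among the lean mice. In db/db mice the median Zfp percentiles were 51.1, 44.6, 49.9 and 57.8.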

How the results depend on the processing

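None of the 12 tests passed as reported, so that no setting could end a pass. Of 193 recomputed values 14 turned direction, 4 newly passed and 8 counts moved. The other 167 did not turn, pass or move, but 1 of them, the difference in Zfp genes with a p-value of 1e-10 or less, came to 0. The cause was not tested for any of these. With a p-value of 1e-10 or less, the difference (db/db minus lean) in Zfp peaks turned to -0.25 and in peaks per Zfp gene to -0.00436, and Zfp minus other genes newly passed for peaks per gene (-0.116) and for the share with 2 or more peaks (-7.31 percentage points), with an exact permutation adjusted p of 0.0469 for both. With equal list lengths, which take more peaks from longer lists, the differences turned to -4.25 Zfp genes, -6 Zfp peaks and -0.0203 peaks per Zfp gene, and the fold percentile of Zfp minus other genes to -0.496. With Zfp36 and names with a letter suffix, peaks per gene (-0.0900) and median length (-8.25) newly passed (exact permutation adjusted p = 0.0469 for both). Leaving out 1 mouse gave -1.5 to 11.8 Zfp genes, -2.17 to 16.5 Zfp peaks, -0.0102 to 0.0483 peaks per Zfp gene and -5.42 to 6.08 bases of median length (db/db minus lean). Genes in all mice of one genotype only then numbered 0 to 3 and regions 0 to 2. They were Zfp110, Zfp790 and Zfp942 without db/db mouse 1, Zfp142 and Zfp707 without db/db mouse 4, Zfp366 without lean mouse 1 and Zfp963 without lean mouse 3, and among regions also Zfp467 without lean mouse 3 and Zfp943 without lean mouse 4. Each of these calls follows directly from leaving out the mouse that had stood against the separation. The shares of all genes and regions so separated at these settings are not given here, so that the counts are no result about the members. Regions in 2 or more mice were 59 with equal lengths and 80 with peaks merged within 100 bases. Adjusted p over all settings lay between 0.0469 and 0.188 for peaks per gene and between 0.0469 and 0.453 for length. Replicate numbers did not pair the mice (correlations of -0.0280 to 0.00877), and a replicate block, whose smallest p is 0.125, changed no call, with a difference of 4 Zfp genes (exact permutation p = 0.75). Depth was unknown and limits every absence of a peak.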
